A study of Drosophila melanogaster with 8 samples.

Results

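The wild type heat shock and recovery course consists of 4 bisulfite amplicon libraries from flies of the strain w1118, out of 8 libraries in the series, and its members were chosen by their strain and stage labels. These libraries hold 8497 of the 16435 reads of the series. Each stage is represented by 1 library. The standard library came from unstressed flies. The heat shock library came from flies kept at 37 °C for 1 h in a water bath and then at room temperature for 5 h. The 2 recovery libraries came from flies given the same heat shock and sampled after 1 day or 3 days. All flies were w1118 adults of both sexes, and an age of 3 days after hatching is given for every library. Whether this is the age at heat shock or at sampling was not resolved here. If it is the age at heat shock, recovery flies were older when sampled, and age cannot be told apart from stage. DNA was extracted from whole bodies, so the levels are averages over all tissues. The other 4 libraries came from homozygous Dnmt2 mutant flies in the w1118 background at the same stages. The number of flies behind a library is not given in the sources used here.

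Invader 4 is a retrotransposon of Drosophila melanogaster, a mobile element that copies itself through RNA and carries a long terminal repeat (LTR) at each end. The LTR holds the element's regulatory sequence and is present in many genomic copies, which were amplified together here. Dnmt2 is the DNA methyltransferase homologue of this fly and is best known for methylating transfer RNA. The course asks whether cytosine methylation of the LTR changes after heat shock and whether a change lasts through recovery. Bisulfite turns unmethylated cytosine into uracil, which is sequenced as T, so a C that remains was either methylated or escaped conversion. These cases were not told apart here, and the measured quantity is called retained C.

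The amplicon is 149 bases long, numbered from 1 at the 5′ end, and contains 27 cytosines. Of these, 8 are followed by G, 10 by A, 4 by C and 5 by T, written CpG, CpA, CpC and CpT. Genomic coordinates are not given because the amplicon represents many copies. The surroundings of the cytosines on which the results turn are shown from the deposited LTR sequence, each with 4 bases on either side and with the measured cytosine in capitals. C15 is the only cytosine that passed the test between the heat shock and standard libraries, and it did not pass with identical sequences counted once. C39 and C75 are CpA cytosines with large differences that did not pass. C112 and C117 are CpA cytosines among the highest levels.
C15: ctgtCgagc
C39: cgaaCagcc
C75: tggtCataa
C112: ggcaCacgc
C117: acgcCagtg

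The wild type libraries held between 1611 and 2670 reads, which gave 42571 to 70412 cytosine calls of C or T, with 1394 to 2669 reads at each cytosine. The reads carry no molecular identifiers, and the number of different sequences in a library was 38.5% to 43.9% of its number of reads. Intervals and tests below therefore cover the counting error of reads only. Where reads are copies of the same molecule, intervals can be too narrow and p-values too small. Counting identical sequences once, as in some settings below, also merges different molecules that share a sequence. A test between libraries that counts reads compares those libraries, not the conditions. The mixture of LTR copies also differed between libraries, along a split that pairs heat shock with 3 days of recovery and standard with 1 day. Of 36 reference mismatches present on average in over 0.5% of reads, 25 did not overlap between these pairs (69.4%), although several differed by little. The pairs were read from these same shares. Some mismatches passed the filter only through the pair in which they were frequent, so the count describes the split and does not test it. The fully converted reference sequence outside the cytosines was carried by 50.6% of standard, 49.1% of heat shock, 43.9% of 1 day and 48.9% of 3 days reads.

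Some of these copies were almost confined to a pair of libraries. G13A, a G in the reference read as A at position 13, was found in 2.21% of reads of both the standard and the 1 day library, against 0.376% after heat shock and 0.124% after 3 days. G85T was found in 1.90% of standard and 1.65% of 1 day reads and in 0% of heat shock and of 3 days reads, where 0 counts allow up to 0.161% and 0.186%. C102G went the other way, with 2.54% in the standard library, 5.33% after heat shock, 2.35% after 1 day and 5.84% after 3 days. Heat shock against standard and 3 days against standard are thus also contrasts across this split, and stage and split cannot be told apart in them. The comparisons of 1 day with standard and of 3 days with heat shock lie within it. Copies also differed within a pair: G26A was found in 2.55% of standard and 4.60% of 1 day reads.

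The split also crosses the genotype labels. C102G was found in 5.74% of standard and 5.38% of 1 day reads of the libraries labelled Dnmt2 mutant, near wild type heat shock and 3 days, and in 2.31% of mutant heat shock and 2.32% of mutant 3 days reads, near wild type standard and 1 day. G85T was found in 0% of mutant standard and 1 day reads, 1.22% of mutant heat shock and 1.51% of mutant 3 days reads. Of the 25 differences that separate the wild type pairs, 18 in the mutant standard and 18 in the mutant 1 day library were nearer to the wild type heat shock and 3 days mean, against 5 in the mutant heat shock and 8 in the mutant 3 days library. An exchange of labels between libraries was not tested, and the amplicon holds no sequence by which the Dnmt2 genotype could be checked. Stages and genotypes below are those of the labels. All comparisons between libraries, and of changes between genotypes, are affected by this doubt. This includes the comparisons of 1 day with standard and of 3 days with heat shock.

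**Figure D1:**
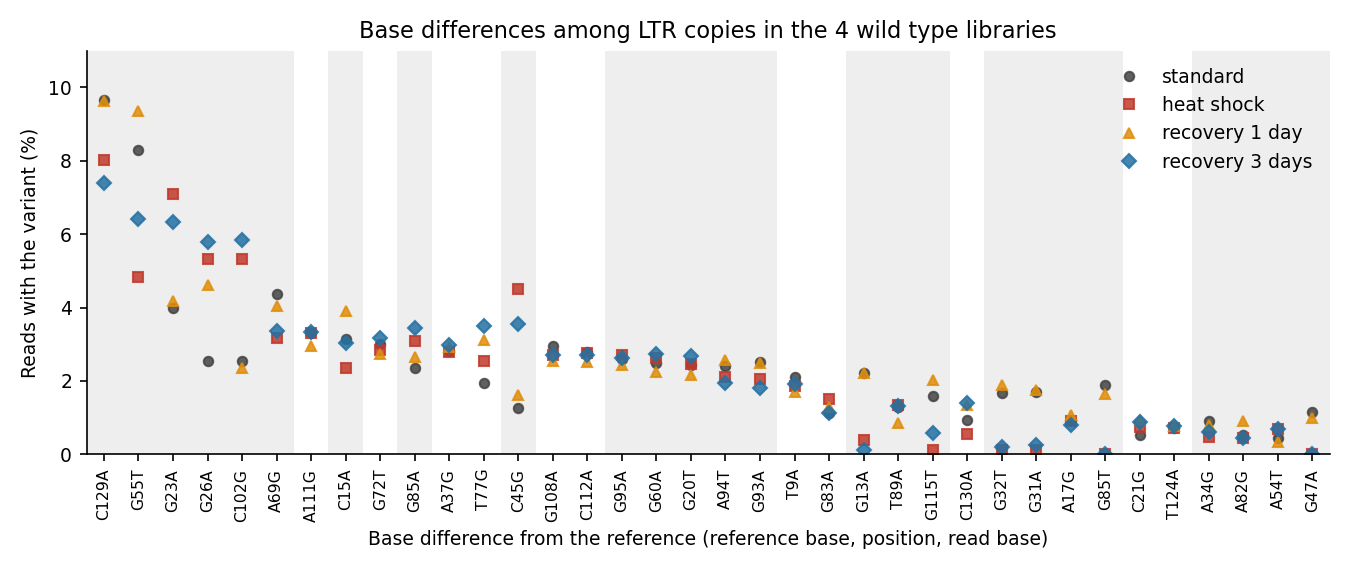
Share of reads (y axis, %) carrying each of 36 base differences from the LTR reference (x axis, ordered by mean share) in the 4 wild type libraries. Grey bands mark the 25 differences at which heat shock and 3 days do not overlap with standard and 1 day; C102G lies at 5.33% and 5.84% in the former and 2.54% and 2.35% in the latter.

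Nearly all cytosines were read as T at every stage, and the share of retained C was lowest in the standard library. It was 1.59% of calls at the standard stage (1121 of 70412 calls, 95% Wilson interval 1.50% to 1.69%). It was 1.87% after heat shock (923 of 49303, 1.76% to 2.0%), 1.80% after 1 day (1113 of 61799, 1.70% to 1.91%) and 1.71% after 3 days (726 of 42571, 1.59% to 1.83%). The highest level was thus found after heat shock, followed by 1 day and then by 3 days, and the intervals of neighbouring stages in this order overlapped. With the calls of a read kept together, the differences from standard were 0.280 percentage points after heat shock (SE 0.0784, 95% interval 0.126 to 0.434) and 0.209 after 1 day (SE 0.0725, 0.0668 to 0.351). The difference after 3 days was 0.113 (SE 0.0813, -0.0460 to 0.273), an interval that includes 0. Between 3 days and heat shock, which lie on the same side of the split, the difference was -0.167 percentage points (SE 0.0912, -0.345 to 0.0119).

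With the read as the unit, the share of reads with at least 1 retained C rose after heat shock and was lower again after 3 days. It was 34.4% in the standard library (918 of 2670 reads), 38.3% after heat shock (713 of 1864), 37.0% after 1 day (871 of 2352) and 34.2% after 3 days (551 of 1611). Heat shock was 3.87 percentage points above standard (95% Newcombe interval 1.03 to 6.72, Fisher's exact test, two-sided, adjusted over the 6 pairs of libraries, p = 0.0441). The 3 days library differed from heat shock by -4.05 points (interval -7.23 to -0.842, adjusted Fisher exact p = 0.0441). The 1 day library was 2.65 points above standard (-0.00373 to 5.30, adjusted Fisher exact p = 0.103), and the 3 days library differed from standard by -0.180 points (-3.10 to 2.77, adjusted Fisher exact p = 0.921). The calls for heat shock against standard and for 3 days against heat shock rest on their margin: counting identical aligned sequences once gave 5.54 and -3.30 points (adjusted Fisher exact p = 0.120 and 0.423), and keeping reads with 80% or more of cytosines called gave 3.28 and -3.97 points (adjusted Fisher exact p = 0.0706 for both). In reads identical to the converted reference outside the cytosines, the difference after heat shock was 4.87 points (adjusted Fisher exact p = 0.113).

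By position, the heat shock and 1 day libraries passed the test against standard at the 5′ end of the amplicon. Over the 14 cytosines of positions 1 to 50 the level was 1.42% in the standard library, 1.75% after heat shock, 1.75% after 1 day and 1.52% after 3 days. The share of reads with a retained C in this part rose from 18.1% at standard to 21.4% after heat shock, by 3.26 percentage points (0.915 to 5.65, Fisher exact p adjusted over 9 tests = 0.0304). It rose to 21.6% after 1 day, by 3.51 points (1.30 to 5.73, adjusted Fisher exact p = 0.0179), a comparison within the split. After 3 days it was 18.4%, 0.346 points above standard (-2.01 to 2.77, adjusted Fisher exact p = 0.775). Without C15 these differences were 2.01 points after heat shock (adjusted Fisher exact p = 0.284) and 2.76 after 1 day (adjusted Fisher exact p = 0.110), and neither passed. With identical aligned sequences counted once they were 5.66 and 4.73 points (adjusted Fisher exact p = 0.0961 and 0.0972). In reads identical to the converted reference outside the cytosines they were 2.23 and 3.75 points (adjusted Fisher exact p = 0.353 and 0.187).

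The other parts of the amplicon did not pass the test at any stage. Over the 5 cytosines of positions 51 to 100 the level was 1.35% at standard, 1.54% after heat shock, 1.57% after 1 day and 1.56% after 3 days, and the adjusted Fisher exact p of all 3 comparisons was 0.318. Over the 8 cytosines of the positions after 100, where levels were highest, it was 2.07% at standard, 2.31% after heat shock, 2.04% after 1 day and 2.14% after 3 days. The adjusted Fisher exact p there was 0.284 for heat shock, 0.702 for 1 day and 0.775 for 3 days. Alignment gaps at these 3′ cytosines followed the split, with 3.47% of standard and 3.82% of 1 day positions but 1.62% after heat shock and 1.79% after 3 days. Whether differences between the parts are larger than counting error was not tested.

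**Figure D2:**
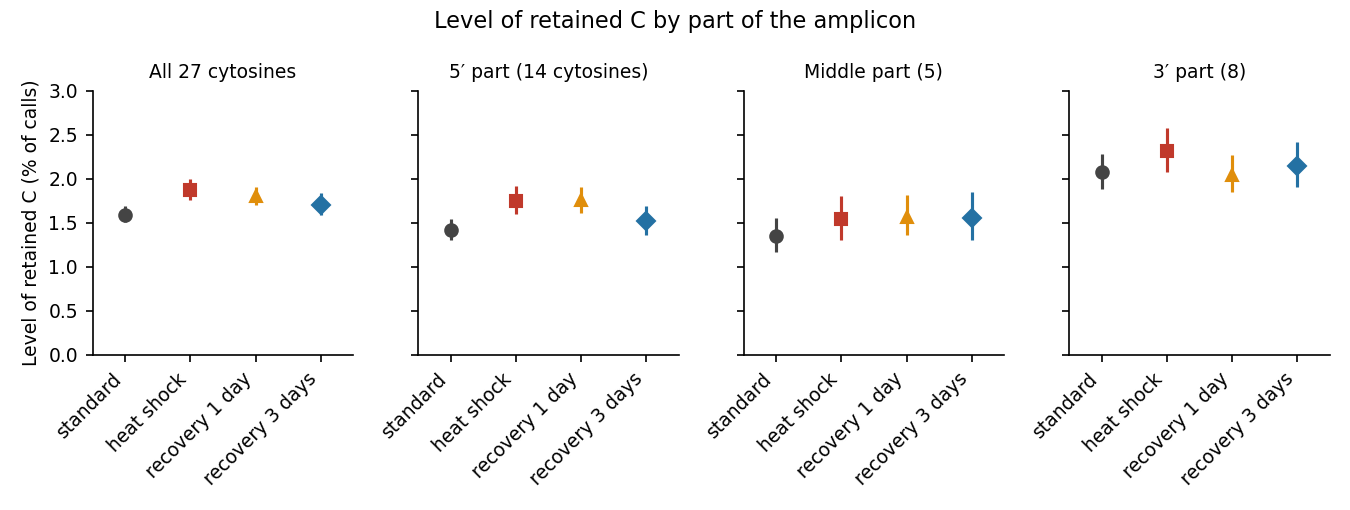
Level of retained C (y axis, % of C and T calls) in the 4 wild type libraries (x axis), over all 27 cytosines and over the 5′, middle and 3′ parts of the amplicon; bars are 95% Wilson intervals. In the 5′ part heat shock and 1 day both lie at 1.75%, above 1.42% at standard, while in the 3′ part the libraries lie between 2.04% and 2.31%.

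At single cytosines, only C15 passed the threshold. Fisher's exact test was run at 27 cytosines per pair of libraries with adjustment over these cytosines. After heat shock 1 of 27 cytosines was called against standard (3.7%), and 4 had an unadjusted p under 0.05 (14.8%), all higher. After 1 day 0 of 27 were called and 2 had an unadjusted p under 0.05 (7.41%), both higher, and after 3 days both counts were 0 of 27 (0%). Against heat shock, 3 of 27 had an unadjusted p under 0.05 at 1 day and again 3 of 27 at 3 days (11.1% each), and 0 were called. Against standard, the smallest adjusted Fisher exact p was 0.490 after 1 day and 0.758 after 3 days. Levels were above standard at 18 of 27 cytosines after heat shock, 19 after 1 day and 20 after 3 days, and these comparisons share the standard library. The median difference over the 27 cytosines was 0.262 percentage points after heat shock, 0.231 after 1 day and 0.142 after 3 days.

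**Figure D3:**
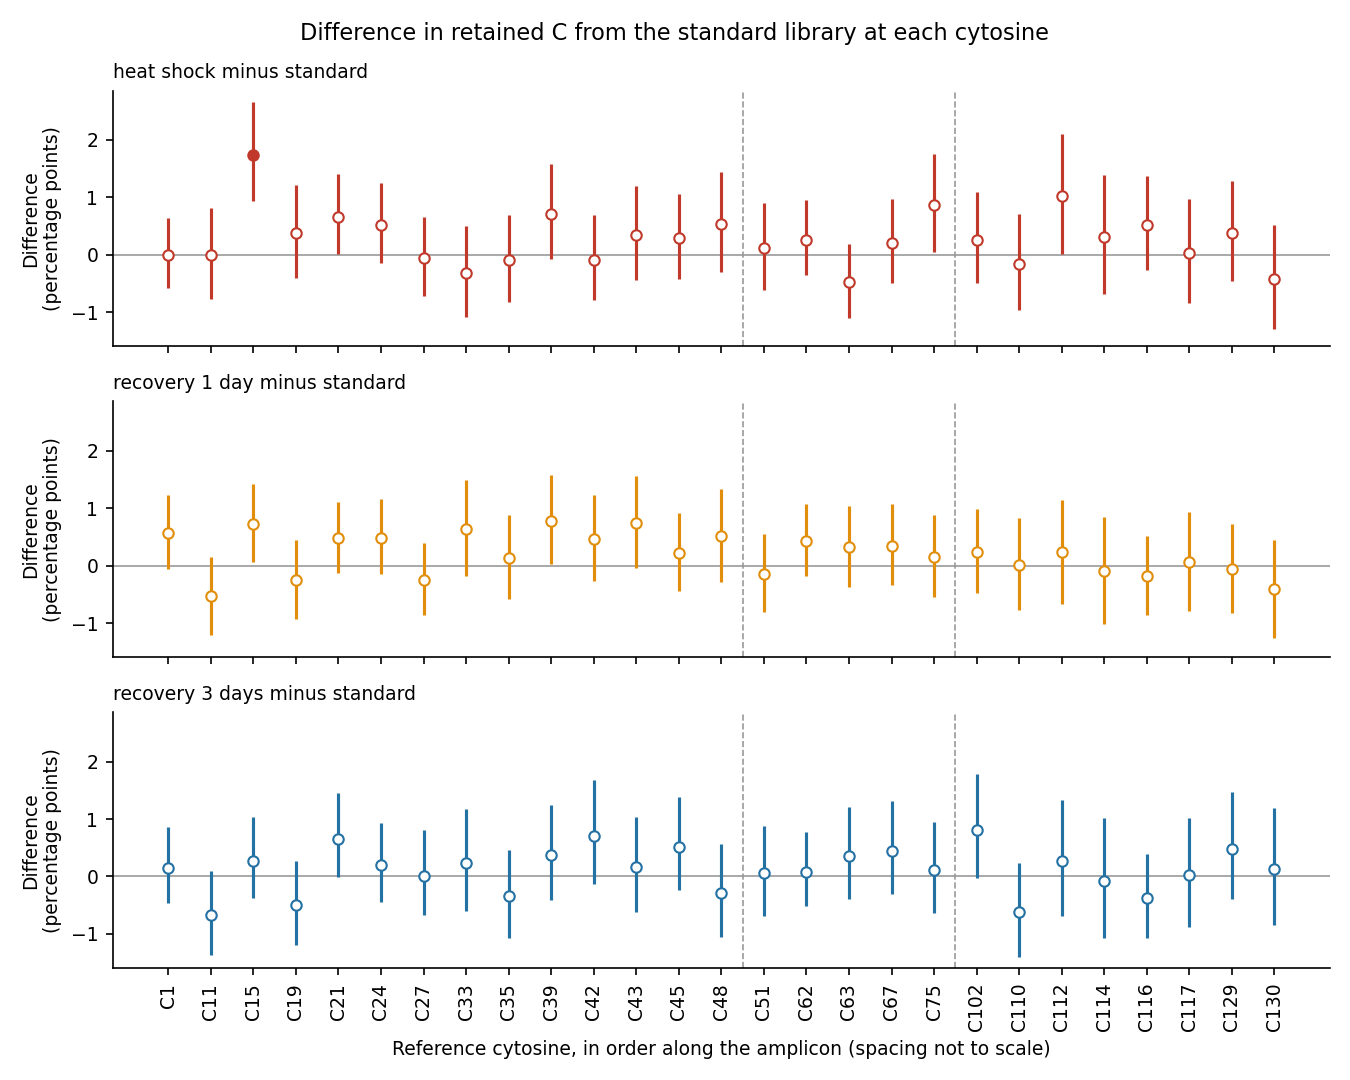
Difference in retained C from the standard library (y axis, percentage points) at each of 27 cytosines (x axis) after heat shock, 1 day and 3 days of recovery; bars are 95% Newcombe intervals, filled points passed the adjusted threshold of 0.05 and dashed lines divide the amplicon into its parts. Only C15 after heat shock is filled, at 1.74 percentage points.

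C15 is a CpG cytosine near the 5′ end and had the largest difference from standard of the 27 cytosines after heat shock. It was retained in 26 of 2585 standard reads (1.01%), 50 of 1820 heat shock reads (2.75%), 39 of 2257 reads after 1 day (1.73%) and 20 of 1562 reads after 3 days (1.28%). The heat shock library was the highest and the standard library the lowest, with 1 day and then 3 days between them. The order of the recovery libraries did not pass a test. The 1 day library differed from heat shock by -1.02 percentage points (adjusted Fisher exact p = 0.349). The 3 days library differed from 1 day by -0.448 points (adjusted Fisher exact p = 0.924). The rise after heat shock was 1.74 percentage points (0.937 to 2.66, adjusted Fisher exact p = 0.000462). After 1 day the difference from standard was 0.722 points (0.0679 to 1.42, adjusted Fisher exact p = 0.490), and after 3 days 0.275 points (-0.372 to 1.03). The 3 days library was 1.47 points below the heat shock library (adjusted Fisher exact p = 0.0908). C15 ranked 24th of 27 cytosines at standard, 3rd after heat shock, 12th after 1 day and 21st after 3 days. C15A, an A read at this position, is among the base differences that separate the pairs of libraries. It was found in 3.15% of standard, 2.36% of heat shock, 3.91% of 1 day and 3.04% of 3 days reads. Such reads are not counted in the level of C15, and their part in its differences was not tested. Leaving C15 out lowered the overall heat shock difference from 0.280 to 0.224 percentage points, the lowest value when each cytosine was left out in turn, and the interval left out 0 in 27 of 27 cases.

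The rise at C15 passed the test in reads of the reference type. Among reads identical to the converted reference outside the cytosines, C15 was retained in 8 of 1348 standard reads (0.593%), 30 of 885 heat shock reads (3.39%), 18 of 1027 reads after 1 day (1.75%) and 6 of 745 reads after 3 days (0.805%). The heat shock difference in these reads was 2.80 percentage points (adjusted Fisher exact p = 2.25e-05), against 1.74 in all reads. Identity outside the cytosines does not show that these reads came from 1 copy. Among the remaining reads the levels were 1.46% at standard, 2.14% after heat shock, 1.71% after 1 day and 1.71% after 3 days, and the heat shock difference was 0.684 points (adjusted Fisher exact p = 0.963). The difference between the read types was not tested. The 50 heat shock reads with C at C15 had 33 distinct sequences, the most frequent of them seen 10 times, and the 26 standard reads had 20, the most frequent seen 6 times. With identical sequences counted once, the difference was 2.22 points and did not pass (adjusted Fisher exact p = 0.203). This setting kept 1028 of 2670 standard and 794 of 1864 heat shock reads. It cannot tell copies of the same molecule from different molecules with the same sequence. Of the 50 heat shock reads, 25 also retained another C (50.0%, 36.6% to 63.4%), against 36.7% of the heat shock reads converted at C15. The same shares were 30.8% against 33.6% at standard, 23.1% against 35.9% after 1 day and 55.0% against 33.3% after 3 days, so they had both directions.

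**Figure D4:**
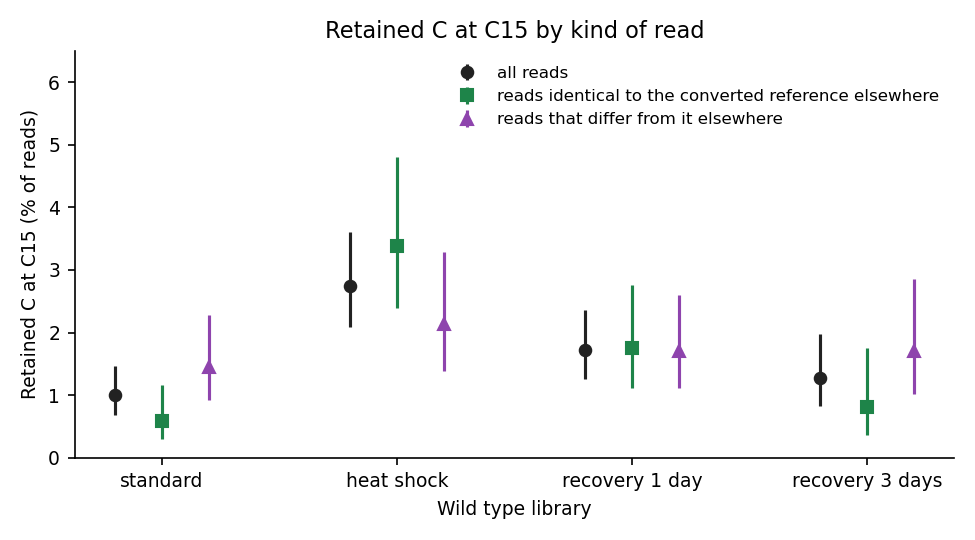
Retained C at C15 (y axis, % of reads with C or T) in the 4 wild type libraries (x axis) in all reads, in reads identical to the converted reference outside the cytosines and in reads that differ from it; bars are 95% Wilson intervals. In reference-type reads the heat shock library lies at 3.39% and the standard library at 0.593%, while in the differing reads they lie at 2.14% and 1.46%.

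The other cytosines with large differences after heat shock did not pass the adjustment. C75, a CpA cytosine in the middle of the amplicon, was retained in 1.51% of standard, 2.37% of heat shock, 1.67% of 1 day and 1.62% of 3 days reads. Its heat shock difference was 0.857 percentage points (adjusted Fisher exact p = 0.334), and the other libraries lay close together. C112, a CpA cytosine, was retained in 2.38% of standard, 3.41% of heat shock, 2.62% of 1 day and 2.66% of 3 days reads. It was the highest cytosine of the heat shock library, with a difference of 1.02 points from standard (adjusted Fisher exact p = 0.334). C112 is among the 5 cytosines at which over 5% of reads in a wild type library had neither C nor T.

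After 1 day of recovery the largest differences were found at C39, C43 and C15, all in the 5′ part. C39, a CpA cytosine, was retained in 1.51% of standard, 2.22% of heat shock, 2.28% of 1 day and 1.87% of 3 days reads. Its 1 day difference was 0.779 percentage points (adjusted Fisher exact p = 0.490). C43, a CpT cytosine, was retained in 1.65% of standard, 1.99% of heat shock, 2.39% of 1 day and 1.81% of 3 days reads, with a 1 day difference of 0.738 points (adjusted Fisher exact p = 0.490). The standard library was the lowest of the course at both.

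After 3 days the largest differences had other positions and both signs. C102, a CpA cytosine, was retained in 1.46% of standard, 1.72% of heat shock, 1.70% of 1 day and 2.27% of 3 days reads, and C42, a CpC cytosine, in 1.38%, 1.29%, 1.84% and 2.08% in the same order. C11, a CpT cytosine, had 1.73% at standard, 1.72% after heat shock, 1.20% after 1 day and 1.06% after 3 days. The differences after 3 days were 0.810 percentage points at C102, 0.701 at C42 and -0.669 at C11, each with an adjusted Fisher exact p of 0.758. C102 and C42 are also among these 5 cytosines. At C102 another base was read in 6.21% of 3 days reads, and at C42 a gap occurred in 7.53% of standard and 13.5% of 3 days reads. Their part in these levels was not tested.

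The cytosines with the highest mean levels were C114, C112 and C117, all in the 3′ part. The level of C114, which is followed by G, was 2.79% at standard, 3.11% after heat shock, 2.69% after 1 day and 2.72% after 3 days, and ranked 1st in 3 libraries and 2nd after heat shock. C117, a CpA cytosine, had the smallest SD of the 27 (0.0224 over 4 libraries). Its levels were 2.26% at standard, 2.29% after heat shock, 2.31% after 1 day and 2.28% after 3 days. Wilson intervals at C117 were far wider than this spread, from 1.75% to 2.91% at standard and from 1.65% to 3.15% after 3 days. The small SD thus does not show a steady level. In reference-type reads C117 had 2.07% at standard, 3.28% after heat shock, 2.42% after 1 day and 2.29% after 3 days. In the remaining reads it had 2.47%, 1.31%, 2.22% and 2.28% in the same order. The highest means were 2.83% ± 0.192 at C114 and 2.77% ± 0.444 at C112 (SD, n = 4 libraries). At C15 the SD over the 4 libraries was 0.765, the widest of the 27. Within a library, levels ran from 0.907% at C21 to 2.79% at C114 at standard, from 0.913% at C63 to 3.41% at C112 after heat shock, from 1.11% at C27 to 2.69% at C114 after 1 day and from 1.06% at C62 to 2.72% at C114 after 3 days. The standard library was the lowest of the 4 at 12 of 27 cytosines and the highest at 1.

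**Figure D5:**
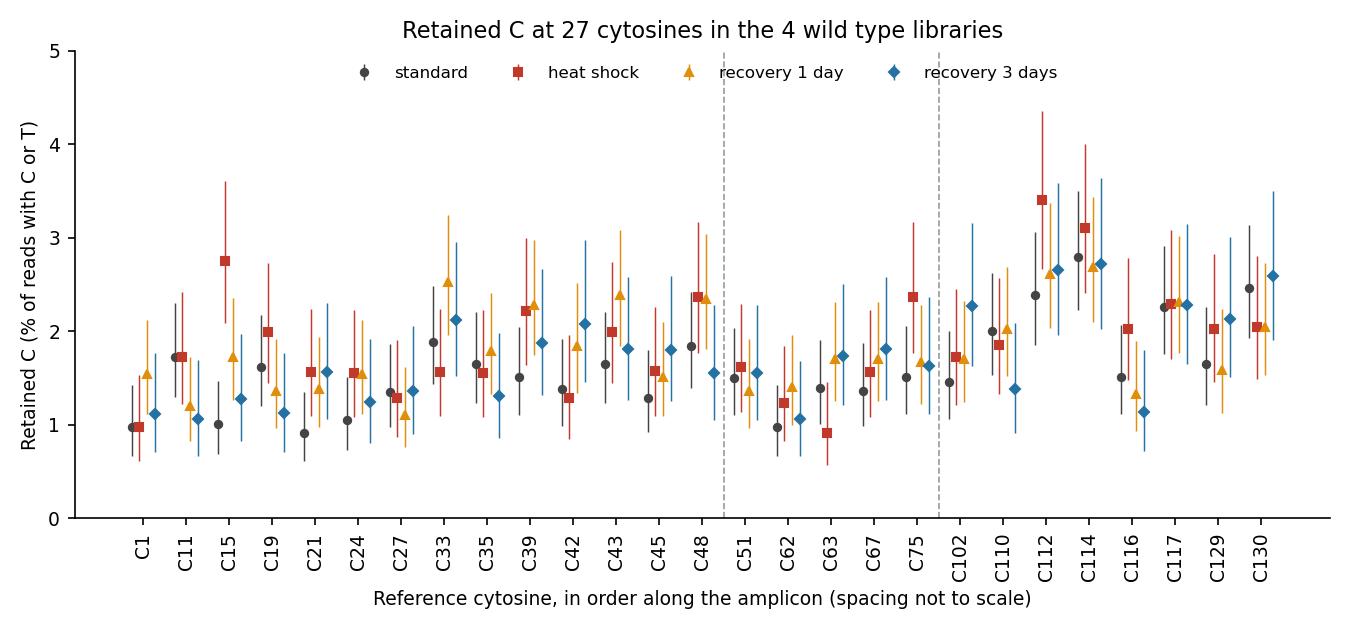
Retained C (y axis, % of reads with C or T) at each of 27 cytosines (x axis, in order along the amplicon) in the 4 wild type libraries; bars are 95% Wilson intervals and dashed lines divide the amplicon into its parts. C114 is the highest in 3 libraries, C117 lies between 2.26% and 2.31% in all 4, and C15 spans 1.01% to 2.75%.

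Reads with several retained C were least frequent in the standard library. Reads with 2 or more retained C made up 6.74% of the standard library (180 of 2670), 9.55% after heat shock (178 of 1864), 8.72% after 1 day (205 of 2352) and 9.50% after 3 days (153 of 1611). The differences from standard were 2.81 percentage points after heat shock (95% Newcombe interval 1.20 to 4.48), 1.97 after 1 day (0.497 to 3.48) and 2.76 after 3 days (1.08 to 4.53), given without a test. Reads with exactly 1 retained C made up 27.6%, 28.7%, 28.3% and 24.7% in the order of the course, so the 3 days library had the fewest of them. The highest number of retained C in a wild type read was 5, found at standard and after 1 day.

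All dinucleotide classes were lowest in the standard library, and none passed the test. CpG levels were 1.48% at standard, 1.80% after heat shock, 1.75% after 1 day and 1.54% after 3 days, and CpA levels 1.86%, 2.11%, 2.06% and 1.96%. CpC levels were 1.37%, 1.64%, 1.53% and 1.57%, and CpT levels 1.42%, 1.69%, 1.57% and 1.56% in the same order. For reads with a retained C at a CpG, which include C15, the share went from 295 of 2670 at standard to 255 of 1864, or 13.7%, after heat shock (2.63 percentage points, 0.693 to 4.62, Fisher exact p adjusted over 12 tests = 0.101). The adjusted Fisher exact p was 0.128 for CpG after 1 day and between 0.332 and 0.623 for the other classes and comparisons.

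The share of C at the 32 reference thymines was also lowest in the standard library. It reflects sequencing and PCR error, and C retained in copies that have a C there. It was 0.139% at standard (116 of 83557 calls, Wilson interval 0.116% to 0.166%), 0.197% after heat shock (0.164% to 0.236%), 0.173% after 1 day (0.146% to 0.206%) and 0.171% after 3 days (0.139% to 0.211%). Heat shock was 0.0583 percentage points above standard at thymines (0.0155 to 0.104), against 0.280 at cytosines. With this background subtracted, the difference at cytosines was 0.222 points after heat shock (0.0614 to 0.382) and 0.175 after 1 day (0.0276 to 0.321). The level at cytosines was 9.50 to 11.5 times the background, with the highest ratio in the standard library. Cytosines that escaped bisulfite conversion are not measured by this background. Any such escape remains in the levels, the ratios and the subtracted differences.

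The change from standard to the library labelled heat shock was larger in wild type than in the libraries labelled Dnmt2 mutant, but both changes cross the copy split, in opposite directions. Reads with at least 1 retained C went from 33.3% to 32.3% in the mutant libraries, a change of -0.975 percentage points against 3.87 in wild type. The difference between the changes was 4.84 points (95% interval 0.618 to 9.07). After 1 day the mutant change was 4.34 points against 2.65 in wild type, a difference of -1.69 (-5.81 to 2.44), and after 3 days the difference was 0.450 (-3.79 to 4.69). Each of these intervals rests on 4 libraries without replicates. The heat shock interval included 0 without C15 (4.19 points, -0.0119 to 8.38) and when identical sequences were counted once (6.24, -0.651 to 13.1), and it did so in 6 of 8 alternatives.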

How the data were processed

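Per the labels' protocols, 5 µg of genomic DNA was bisulfite-converted with the EpiTect kit, and the LTR was amplified from 200 ng in 35 cycles and re-amplified from 50 ng in 15 cycles, at 50 °C annealing, with 454 adapters. The authors deposited, per library, reads aligned to the LTR and a matrix of codes (0 for C, 1 for T, NA otherwise). The closing line of each matrix, the percent of C per cytosine, was dropped. The deposited score per read equalled the T codes plus 0.5 per NA in all reads and was used only for this check. All codes matched the aligned bases, and percents recomputed from the codes matched the authors' to within 0.00499 points. The aligner and the read filters were not given in the sources used here.

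Levels are C of C and T calls. Difference intervals for levels keep each read's calls together, and differences between shares have Newcombe intervals. Fisher's exact tests (two-sided, scipy 1.17.1, at least 50 reads per cytosine) were Benjamini-Hochberg adjusted at a threshold of 0.05. Tests were run on simulated data first. Members, lists and tests were chosen with earlier results of these data known. Named cytosines are those past the threshold, the 3 with the largest difference at each later stage, and the 3 with the highest mean level; C21, C27, C33, C62, C63 and C116 were named after their values were seen. The counts of reads with 2 or more retained C, the comparison of base differences with the mutant libraries and the set of reads that differ from the reference were also chosen after seeing the data; the set of reads identical to the reference was not. Alternatives counted identical sequences or call patterns once, restricted reads or cytosines, and changed the adjustment, the minimum number of reads and the weights. The full LTR sequence is not printed.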

Additional observations from a re-analysis of the deposited data

Results flagged for a closer look

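The change from standard to heat shock differed between genotypes in a comparison of the changes themselves. The share of reads with at least 1 retained C changed by 3.87 percentage points in wild type and by -0.975 points in the libraries labelled Dnmt2 mutant, a difference of 4.84 points (95% interval 0.618 to 9.07, 1 library per genotype and stage). The interval included 0 in 6 of 8 alternatives, among them without C15 (-0.0119 to 8.38), with 80% or more of cytosines called (-0.207 to 8.36) and with identical sequences counted once (-0.651 to 13.1). Heat shock against standard crosses the split in LTR copies in both genotypes, in opposite directions, so genotype, stage and split cannot be told apart here.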

How the results depend on the processing

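All differences here are in percentage points, and the cause of a change between settings was not tested. The difference in level after heat shock kept its direction under all alternatives, and its interval left out 0 except with call patterns counted once. With identical call patterns counted once, which by construction removes most fully converted reads, the share of reads with a retained C differed from standard by 3.57 after heat shock, 0.150 after 1 day (2.65 with all reads) and 2.89 after 3 days, and the 3 days library differed from heat shock by -0.680 and from 1 day by 2.74. Levels differed from standard by 0.255 after heat shock and 0.183 after 1 day, and between 3 days and 1 day by 0.00384. The 5′ part gave 4.26 after heat shock and 1.40 after 1 day, the 3′ part -0.936 after heat shock and -0.708 after 3 days, and CpC -1.86, -1.27 and -1.64 in the order of the course. The genotype difference after heat shock was 6.74 (interval -2.20 to 15.7), C112 had -0.698 after heat shock and C43 -1.29 after 1 day, and 0 cytosines were called after heat shock. With identical aligned sequences counted once, the shares were 5.54 after heat shock, 1.61 after 1 day and 2.24 after 3 days against standard, and -3.30 and 0.631 for 3 days against heat shock and 1 day. Levels gave 0.189 for 1 day against standard and 0.0575 for 3 days against 1 day. The 5′ part gave 5.66 and 4.73, the middle part -0.0414 after 1 day, and CpC -0.173, -0.0696 and -0.767. The genotype difference was 6.24, and 0 cytosines were called after heat shock.

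With 80% or more of cytosines called, shares were 3.28 for heat shock against standard and -3.97 for 3 days against heat shock, the 5′ part gave 3.02 after heat shock, and the genotype differences were 4.08 after heat shock and -0.234 after 3 days. In reads identical to the converted reference, shares were 4.87 after heat shock and 0.112 after 3 days, and -4.76 between 3 days and heat shock. The 5′ part gave 2.23, 3.75 and -0.811 in the order of the course, CpT -0.0658 after 1 day and -0.762 after 3 days, and the genotype differences were 4.28 after heat shock and -2.03 after 3 days. In these reads 1 cytosine was called between 3 days and heat shock. Without the 5 often uncalled cytosines, 3 days was below 1 day by -3.69 in share and -0.198 in level and below heat shock by -0.252 in level, and all 3 now passed. The 3′ part then gave -0.914, CpA -0.287, CpC -0.262 and the genotype difference -0.744 after 3 days.

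Further settings were added after seeing the data. Without C15, shares were 3.20 and -3.27 for heat shock against standard and 3 days against heat shock, the 5′ part gave 2.01 after heat shock and 2.76 after 1 day, and the genotype difference was 4.19. In reads that differ from the converted reference, the same shares were 2.94 and -3.35, and the 5′ part gave 4.29 and 3.47. After 3 days the 3′ part gave -0.0239, CpA -0.827 and CpC -0.119. The genotype difference after heat shock was 5.36, and 0 cytosines were called after heat shock. No wild type read had C at over 20% of cytosines, so leaving such reads out changed no wild type value. Adjusting over all pairs left the call at C15 in place (adjusted Fisher exact p = 0.00277). Requiring 20 or 200 reads per cytosine could not change it, because every cytosine had at least 1394 reads in each wild type library. Requiring a difference of 1 point could not change it either, because the difference at C15 was 1.74. No paired analysis was possible because each stage has 1 library. Depth limits single cytosines, where 20 to 50 retained reads set the level of C15.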

Other observations

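Between heat shock and the recovery libraries, the single cytosines with an unadjusted Fisher exact p under 0.05 were 3 of 27 after 1 day (11.1%) and 3 of 27 after 3 days (11.1%), and 0 were called after adjustment in either comparison. C63, a CpG cytosine in the middle of the amplicon, was the lowest cytosine of the heat shock library. It was retained in 1.39% of standard, 0.913% of heat shock, 1.70% of 1 day and 1.74% of 3 days reads, so its heat shock library lay below the other 3. C33, a CpA cytosine of the 5′ part, had 1.89% at standard, 1.57% after heat shock, 2.52% after 1 day and 2.12% after 3 days. C116, a CpC cytosine of the 3′ part, had 1.52% at standard, 2.03% after heat shock, 1.33% after 1 day and 1.14% after 3 days.

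The level of retained C was also computed in copies that carry a frequent variant. In reads with C129A, which have lost the cytosine at position 129, it was 1.49% at standard (246 reads), 1.72% after heat shock (146 reads), 1.92% after 1 day (215 reads) and 2.0% after 3 days (116 reads). In reads with G55T it was 1.73% at standard, 1.78% after heat shock, 1.84% after 1 day and 2.03% after 3 days. In reads with G23A the order differed, with 1.81% at standard, 1.75% after heat shock, 1.93% after 1 day and 1.87% after 3 days. In the copies with C129A or G55T the standard library was the lowest and the 3 days library the highest, and the 95% Wilson intervals of these libraries overlapped. For C129A they ran from 1.22% to 1.83% at standard and from 1.55% to 2.57% after 3 days.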
